A study of Caenorhabditis elegans with 24 samples.

Results

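The change described here is the one that the distal tip cells (DTCs) of Caenorhabditis elegans made between early and late larval stage L4 beyond the change that the rest of the animal made over the same interval. It was read from 12 of the 24 RNA-seq libraries of the series, those of 4 groups with 3 libraries each. The groups were Venus-positive DTCs at early L4, Venus-positive DTCs at late L4, and the non-fluorescent cells other than DTCs at each of the same stages. All 4 groups came from wild-type hermaphrodites carrying a Venus label in the DTC, grown at 20 °C on OP50 bacteria. The promoter that drives Venus is not given in the sources used here, and the control fraction is a mixture of every other tissue. RNA came from 30000 to 60000 cells per sample, and the labels do not say that the 3 samples of a group were separate cultures, so a p-value here speaks only to the spread among these samples, which may be technical. Of 46778 gene IDs, 15309 passed the filter on low counts and were tested.

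The DTC caps the tip of each gonad arm and leads its elongation along the body wall, and there it maintains the germline stem cells as their niche by presenting the Notch ligand LAG-2. During L4 the migrating cell crawls along the dorsal side toward the middle of the animal, moving over and laying down basement membrane, and it stops as the animal nears adulthood. The labels do not say whether the late L4 DTCs had stopped, and niche function goes on into the adult.

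For every gene the step in DTCs (late over early L4) and the step in other cells were fitted on the log2 scale, and the interaction value is the DTC step minus the other-cell step. A positive value means that the DTC step was the higher of the pair. Errors after log2 values are standard errors, and "called" means an adjusted p under 0.05 in edgeR's quasi-likelihood test, with Benjamini-Hochberg adjustment over all genes tested. Every adjusted p below is from that test unless another tool is named. Levels are CPM, counts scaled to the effective library size, so each is a share of the RNA in a library and genes are not compared with each other by level. In bulk samples of this kind, fewer cells of a type and less RNA per cell cannot be told apart.

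The libraries held 11325030 to 18000822 counts. The DTC markers fixed for the label (lag-2, hlh-12, apx-1 and gon-1) summed to 391 to 427 CPM in DTCs at early L4 and 336 to 482 CPM at late L4, against 7.32 to 25.8 CPM in the 6 libraries of other cells, and lag-2 gave 76.1% of the sum in late L4 DTCs. At early L4 hlh-12 (69 to 97.5 CPM) and gon-1 (37.3 to 49.2 CPM) held more of it than at late L4 (2.82 to 6.43 and 13.8 to 21.8 CPM). The late L4 libraries numbered 3 stood apart from their groups. In DTCs that library had body wall muscle markers at 4630 CPM against 18800 and 14400 CPM, and in other cells it had sperm markers at 30400 CPM against 14500 and 14200 CPM. DTC early L4 replicate 3 was also low in muscle markers, at 3810 CPM against 7360 and 10100 CPM. Its coelomocyte markers were at 30.9 CPM against 147 and 232 CPM. Leaving out both late L4 libraries numbered 3 gave 173 interaction calls, of which 118 were among the calls of the full set.

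The interaction was called for 186 genes (1.21% of those tested), 95 with a higher DTC step (0.621%) and 91 with a lower one (0.594%). Scaling by DESeq2's size factors moved the median interaction value of all genes from 0.12 to -0.03 and changed the split to 67 higher and 108 lower. In 130 of the 186 genes the step was called in DTCs and not in other cells, with 78 higher and 52 lower. In 28 it was called in other cells and not in DTCs, with 6 higher and 22 lower. In 16 both steps were called in opposite directions, in 7 both in the same direction, and in 5 neither. The steps alone had far more calls. In DTCs the step was called for 1626 genes (10.6%), of which 1099 (7.18%) rose and 527 (3.44%) fell. In other cells it was called for 637 (4.16%), of which 481 (3.14%) rose and 156 (1.02%) fell.

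The calls sorted differently by where the gene stood before the step. Of all genes tested, 21.1% were called between DTCs and other cells at early L4 (13.4% above, 7.71% below) and 24.7% at late L4 (15.1% above, 9.62% below). Of the 95 genes with a higher DTC step, 20 were called above and 14 below other cells at early L4, and 92 above and 0 below at late L4. Of the 91 genes with a lower DTC step, 81 were called above other cells at early L4 and 1 below. At late L4, 39 of the 91 were called above other cells and 18 below. These counts share libraries with the interaction and describe it; they do not test it.

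**Figure D1:**
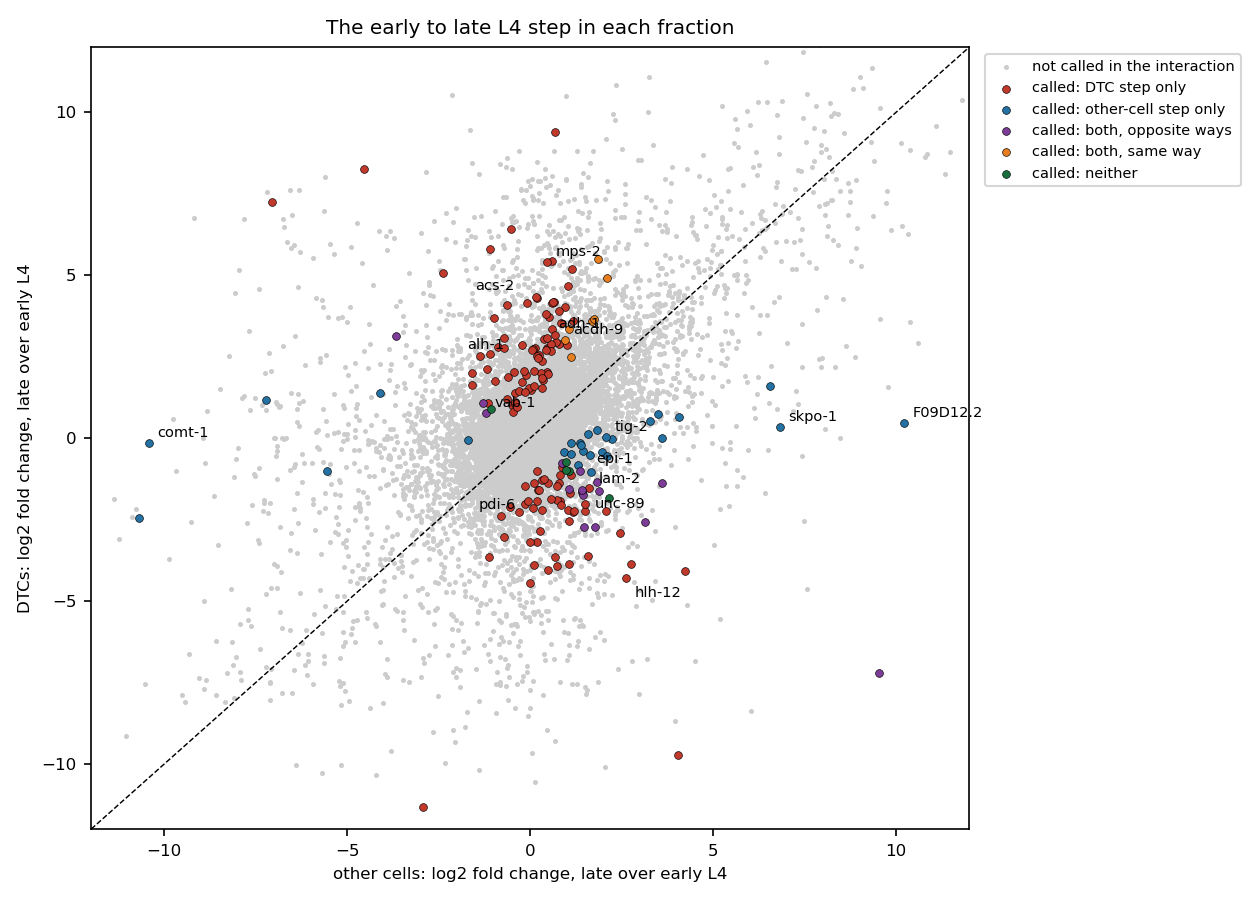
Each point is 1 gene tested, with its log2 step from early to late L4 in other cells on the horizontal axis and in DTCs on the vertical axis. Colours mark the 186 genes called in the interaction by which step was called, the dashed line marks equal steps, and 12 genes past 12 on either axis, none of them called, lie outside the frame; the largest coloured class has only the DTC step called (130 genes).

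Only 42 of the 186 calls were kept whichever single library was left out, 20 higher and 22 lower, and all 42 were also kept with both late L4 libraries numbered 3 left out. In the fit of all 24 libraries 27 of the 42 were kept. The 24 genes described next are the 12 highest and 12 lowest interaction values among such calls with a public gene name, more than 3 counts in every group and a mean of 10 CPM or more in at least 1 group. Coordinates are those of the WBcel235 assembly.

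Among these leading genes with a higher DTC step, mps-2 had the highest interaction value. It encodes a potassium channel accessory subunit of the KCNE type and lies on chromosome II at 309451 to 312210 on the minus strand, inside the span of K01A2.4 on the other strand, with which it shares 5.19% of its exon bases. In DTCs mps-2 stood at 26.9, 23 and 7.32 CPM at early L4 and at 694, 579 and 1150 CPM at late L4. In other cells it stood at 29.6, 26.5 and 48.5 CPM and then at 60.4, 44 and 39.4 CPM. The DTC groups did not overlap, and the other cells overlapped between stages and with the early DTCs. The interaction value was 4.94 ± 0.65 (adjusted p = 0.00716), with a DTC step of 5.40 ± 0.53.

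The alcohol dehydrogenase gene adh-1 (chromosome V, 11888248 to 11889650, plus strand) started level in the fractions and ended apart. Early L4 DTCs held 731, 924 and 446 CPM and early L4 other cells 797, 782 and 642 CPM. At late L4 the DTC libraries held 8520, 8490 and 12600 CPM and the other cells 1030, 1030 and 919 CPM. The late L4 DTC libraries were all above every other library by a wide margin, and the interaction value was 3.40 ± 0.38 (adjusted p = 0.0036). The aldehyde dehydrogenase gene alh-1 (chromosome III, 5077764 to 5080661, plus strand) went from below other cells to above them. Its DTC levels were 64.7, 66.8 and 57.6 CPM and then 380, 381 and 617 CPM, while other cells had 131, 139 and 133 CPM and then 105, 135 and 102 CPM. None of the DTC libraries overlapped the other cells at either stage, and the interaction value of alh-1 was 3.10 ± 0.32 (adjusted p = 0.00189).

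The acyl-CoA synthetase gene acs-2 (chromosome V, 15567394 to 15569897, plus strand), whose product activates fatty acids, followed the same course. DTCs had a mean of 35.8 ± 19.3 CPM (SD, n = 3) at early L4 and 638, 642 and 827 CPM at late L4. Other cells had 98, 92.9 and 71 CPM and then 145, 101 and 54.3 CPM, so that the late DTCs were above every other library and the other cells overlapped between stages. The interaction value was 4.10 ± 0.61 (adjusted p = 0.0109). The highest adjusted p when 1 library was left out was 0.0479, without DTC early L4 replicate 1.

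Other enzymes stood in the same group. For alh-8, a methylmalonate-semialdehyde dehydrogenase of valine breakdown, DTC levels went from 262 to 369 CPM up to 1680 to 2890 CPM, against 466 to 539 and 650 to 771 CPM in other cells. The acyl-CoA dehydrogenase gene acdh-9 rose in both fractions, from 64.4 to 72.9 CPM up to 493 to 680 CPM in DTCs and from 51.9 to 57.5 CPM up to 98.6 to 118 CPM in other cells. Its DTC step was the larger by 2.06 ± 0.26 (adjusted p = 0.0057). The lipin gene lpin-1, whose product makes diacylglycerol from phosphatidic acid, had 118 to 158 and then 399 to 530 CPM in DTCs, with 86.4 to 128 CPM over all libraries of other cells. Its interaction value was 1.94 ± 0.28 (adjusted p = 0.00958).

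The regulators among the leading genes were gmeb-2, fkh-7 and nhr-101. The gmeb-2 gene rose from 12.9 ± 4.97 to 108 ± 17.4 CPM in DTCs (mean ± SD, n = 3), while other cells held 7.91 to 10.7 and then 3.4 to 8.27 CPM, and its interaction value was 3.76 ± 0.53 (adjusted p = 0.00882). The forkhead factor gene fkh-7 went from 46 to 56 CPM up to 153 to 236 CPM in DTCs and from 34.8 to 47.8 CPM to 23.4 to 31 CPM in other cells. Its DTC step was called (1.88 ± 0.24, adjusted p = 0.000712) and its other-cell step of -0.61 was not. For the nuclear hormone receptor gene nhr-101 the DTC levels were 13.7 ± 4.24 CPM and then 221 ± 51.6 CPM (mean ± SD, n = 3), with an interaction value of 3.07 ± 0.40 (adjusted p = 0.00716). The gene shares 69.2% of its exon bases with genes on the opposite strand and the strand setting of the counting is not given in the sources used here, so its reads cannot be told apart from theirs. Also among the leading genes with a higher DTC step, linc-17 is a long intergenic noncoding RNA on chromosome II (3596226 to 3596812, plus strand), with 23.5 to 28.7 CPM and then 99.3 to 251 CPM in DTCs against 14.2 to 22.3 and 6.12 to 11 CPM in other cells.

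Markers of the intestine moved in the same direction as these genes. Their sum over 18 genes was 453 to 616 CPM in early L4 DTCs and 1410 to 1900 CPM in late L4 DTCs, against 880 to 985 and 1070 to 1620 CPM in other cells. None of the 18 was called in the interaction by edgeR (8 were higher at an unadjusted p under 0.05, and DESeq2 called 2 higher), 17 had a positive value, and their median was 1.41 beside 0.12 over all genes tested. No intestinal marker was at 0 throughout a group, and the intestinal GATA factor gene elt-2 had a mean of 0.975 CPM in early and 6.68 CPM in late L4 DTCs. The part of intestinal RNA in the higher DTC steps was not tested.

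**Figure D2:**
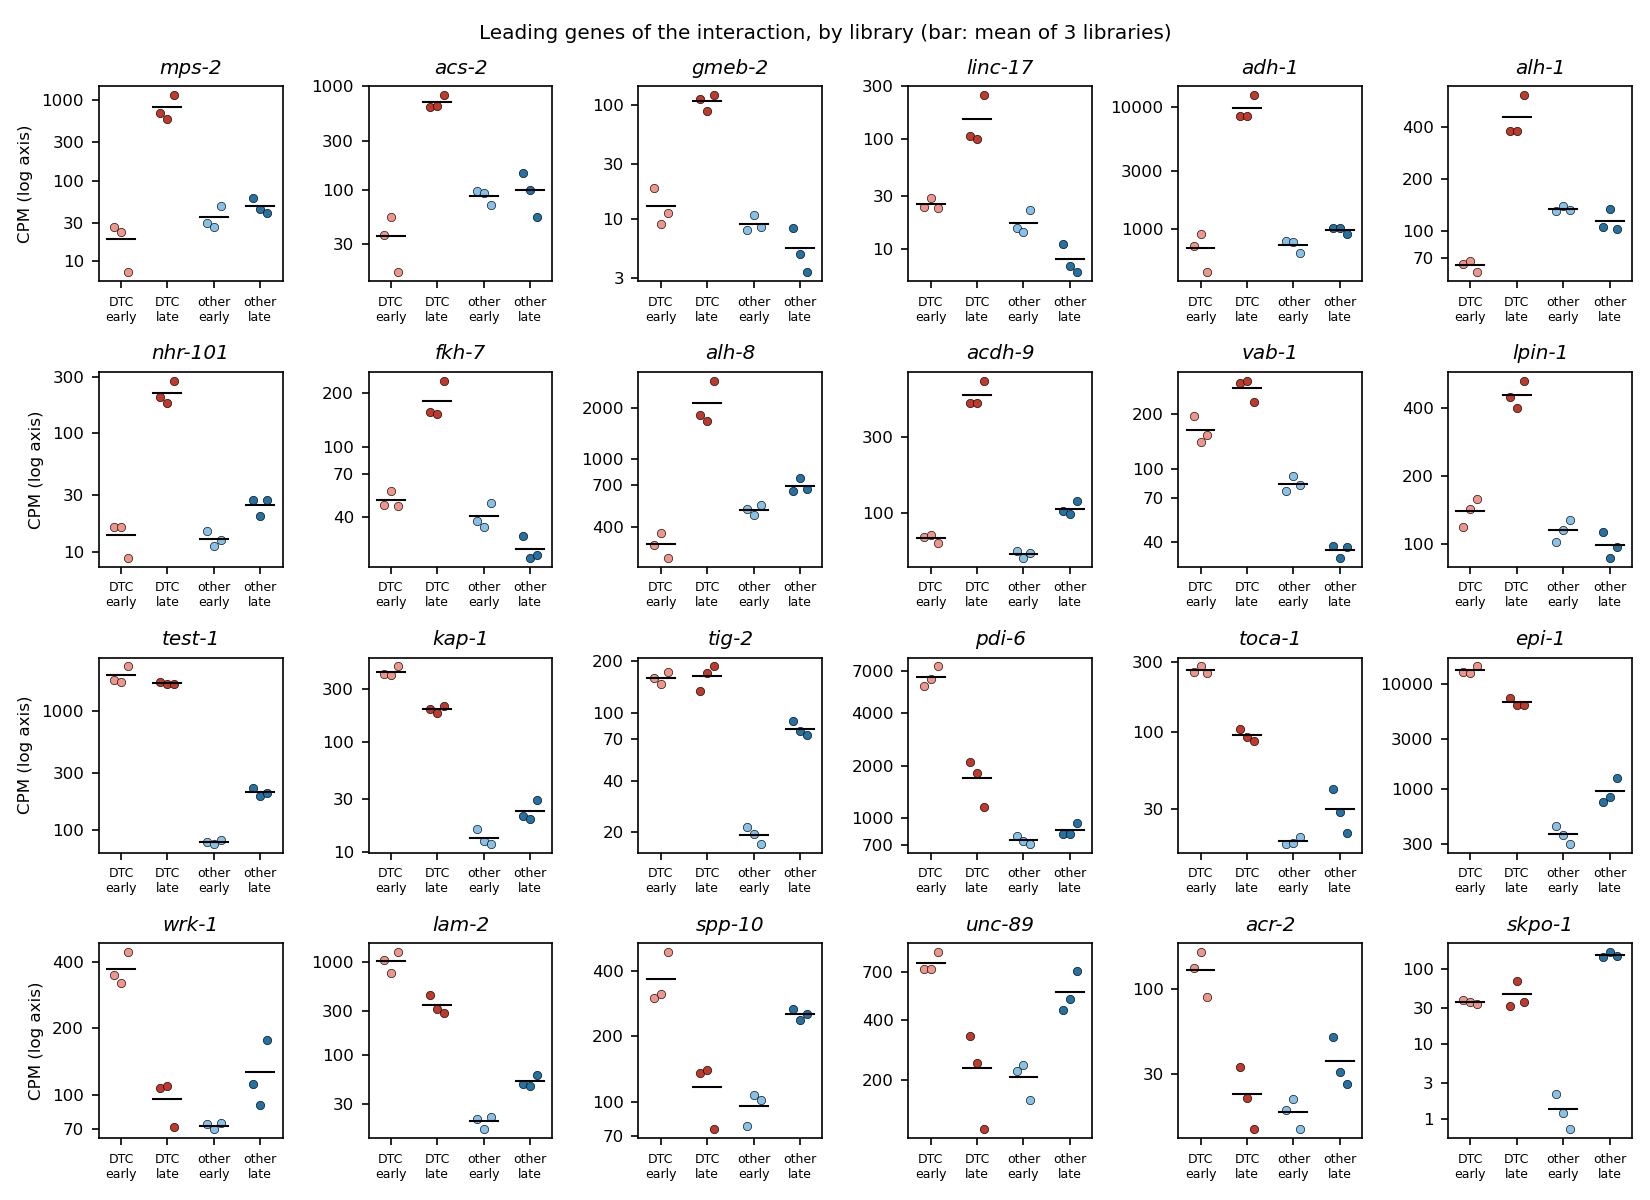
CPM per library, on log axes that differ between panels, of the 12 leading genes with a higher DTC step (upper rows) and the 12 with a lower one (lower rows). Points are single libraries of the 4 groups and bars are means of 3 libraries; adh-1 stands at 8490 to 12600 CPM in late L4 DTCs and at 446 to 1030 CPM in every other library, while skpo-1 moves in other cells from 0.716 to 2.12 CPM up to 143 to 167 CPM.

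The genes with a lower DTC step included several of the basement membrane. Laminin is a trimer that forms the first layer of a basement membrane, and 2 of its chain genes, lam-2 (gamma) and epi-1 (an alpha chain), fell in DTCs and rose in other cells. The laminin genes lam-1 and lam-3 did not share this pattern. Levels of lam-1 overlapped between stages in both fractions. Those of lam-3 overlapped in DTCs, and in other cells every late L4 library was below every early one. The levels of lam-2 (chromosome X, 7143846 to 7151239, minus strand) in DTCs were 1050, 751 and 1270 CPM at early L4 and 437, 309 and 279 CPM at late L4. In other cells they were 20.8, 15.9 and 21.6 CPM and then 48.7, 46.6 and 61.1 CPM. The stages did not overlap in either fraction, the DTC step was -1.59 ± 0.25 and the other-cell step 1.43 ± 0.26, and the interaction value was -3.01 ± 0.36 (adjusted p = 0.00496). DTCs remained above other cells at late L4, by 2.71 on the log2 scale.

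For epi-1 (chromosome IV, 10666823 to 10679291, plus strand) DTC levels were 13000, 12600 and 14700 CPM at early L4 and 7340, 6320 and 6330 CPM at late L4. Other cells had 447, 363 and 300 CPM and then 745, 829 and 1270 CPM. Again the stages were apart in both fractions and moved in opposite directions. The interaction value of epi-1 was -2.37 ± 0.33 (adjusted p = 0.00882), with a DTC step of -1.01 ± 0.23 and an other-cell step of 1.36 ± 0.23.

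Of the 19 basement membrane genes listed, all of which passed the filter, 6 were called lower in the interaction (31.6%, beside 0.594% of all genes tested) and 1 higher. The list's median interaction value was -0.91, beside 0.12 over all genes. In DTCs 3 members rose and 4 fell, and in other cells 7 rose and 0 fell by the same test. Markers of other tissues went up in sum in other cells over the same interval, uterus and vulva markers (14 genes) from 123 to 188 CPM up to 2060 to 4230 CPM and body wall muscle markers (23 genes) from 17300 to 19700 CPM up to 38900 to 51100 CPM. In DTCs the uterus and vulva sum went from a mean of 444 CPM to 1130 CPM and the muscle sum from 3810 to 10100 CPM to 4630 to 18800 CPM. At early L4 the uterus and vulva sum was higher in every DTC library than in other cells. In DTCs that sum therefore cannot be read as RNA of the uterus and vulva alone. Of the uterus, vulva and muscle markers, 1 of the uterus and vulva list was at 0 in early L4 DTCs and no other was at 0 throughout a group. Their part in the basement membrane values was not tested. The remaining lower calls differed in which fraction moved. The hemicentin gene him-4 fell in DTCs from 5350, 5370 and 5610 CPM to 1520, 1500 and 663 CPM and held 75.9 to 106 CPM in all other-cell libraries, an interaction value of -2.24 ± 0.40 (adjusted p = 0.0266). The papilin gene mig-6, which the DTC needs for its migration, stood at 32500 to 36700 and then 23600 to 28300 CPM in DTCs, a step that was not called, while other cells rose from 1140 to 1220 CPM up to 3150 to 6990 CPM. The interaction value of mig-6 was -2.40 ± 0.38 (adjusted p = 0.0137).

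The type IV collagen gene emb-9 and the SPARC gene ost-1, whose product binds that collagen, showed the same pattern as mig-6. DTC levels of emb-9 were 18100 to 20600 and then 19400 to 24000 CPM, overlapping between stages, and other cells rose from 531 to 647 CPM up to 1650 to 2920 CPM (interaction -1.58 ± 0.32, adjusted p = 0.0413). For ost-1 the other-cell step was 1.58 ± 0.19 and the DTC step 0.13 ± 0.19, which was not called. The partner collagen gene let-2 had an interaction value of -1.61 ± 0.39 that missed the threshold (adjusted p = 0.0823). The fibulin gene fbl-1 went the other way, from 0.157 to 1.28 CPM up to 19.2 to 55.2 CPM in DTCs with 10.3 to 31 CPM in other cells. The nidogen gene nid-1 fell in DTCs from 14300 to 17400 CPM to 5620 to 6220 CPM (step -1.41 ± 0.28, adjusted p = 0.00839), while its interaction value was -0.70 ± 0.39 (adjusted p = 0.555).

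The calls of lam-2 and epi-1 were kept without any 1 library, and the other calls of this list were not. Without DTC early L4 replicate 1 the list had 2 lower calls in place of 6, and over the 12 single removals it had 2 to 7. With all 24 libraries it had 3. The call of mig-6 was lost without that 1 library (adjusted p = 0.0525). The call of him-4 was lost without any of 5 libraries (adjusted p up to 0.0798), that of ost-1 without any of 8 (up to 0.091), and those of emb-9 and fbl-1 without any of 10 (up to 0.11 and 0.0944).

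**Figure D3:**
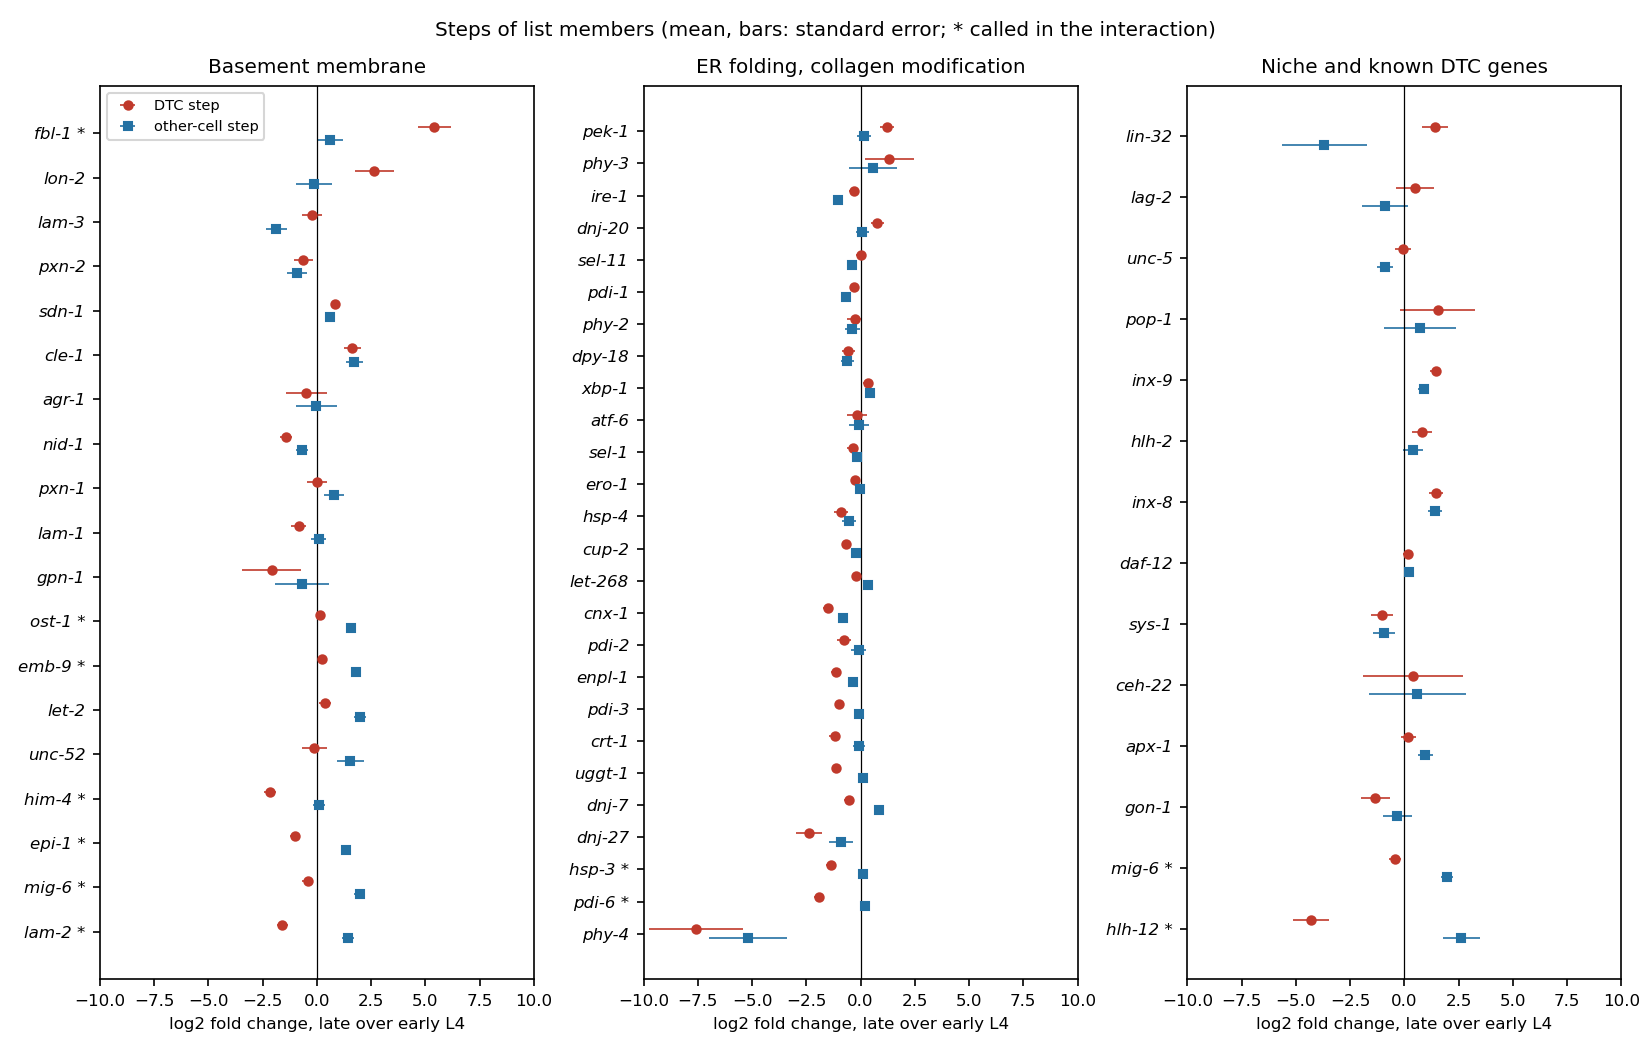
Log2 steps from early to late L4 with standard errors (bars), in DTCs (circles) and other cells (squares), for the tested members of 3 gene lists ordered by interaction value. An asterisk marks a call in the interaction; in the basement membrane panel the called genes lam-2, mig-6 and epi-1 have an other-cell step of 1.36 to 1.97 and a DTC step of -1.59 to -0.43.

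More genes of the secretory pathway fell than rose in DTCs, where 3.44% of all genes tested fell and 7.18% rose. Of 26 genes for folding in the endoplasmic reticulum (ER) and collagen modification, 8 fell and 1 rose in DTCs and 2 fell in other cells. The interaction was called lower for 2 of them (7.69%, beside 0.594% of all genes tested), and the list's median interaction value was -0.43. The protein disulfide isomerase gene pdi-6 (chromosome X, 7066342 to 7068563, minus strand) fell in DTCs from 5740, 6260 and 7440 CPM to 2100, 1820 and 1160 CPM. In other cells it held 789, 740 and 713 CPM and then 806, 814 and 934 CPM. The stages were far apart in DTCs and close in other cells, and the interaction value was -2.12 ± 0.31 (adjusted p = 0.0108).

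The BiP chaperone gene hsp-3 fell in DTCs from 1340 to 1590 CPM to 387 to 652 CPM and held 395 to 507 CPM in other cells (interaction -1.49 ± 0.31, adjusted p = 0.0428, lost without any of 11 libraries, up to 0.135). The glucosyltransferase gene uggt-1, a sensor of misfolded glycoproteins, had a DTC step of -1.12 ± 0.19 and an interaction value of -1.21 (adjusted p = 0.0585). Of 37 genes of ER to Golgi transport and exocytosis, 15 fell and 1 rose in DTCs, 2 fell in other cells, and none was called in the interaction by edgeR at the adjusted threshold. At an unadjusted p under 0.05 there were 9 lower and 3 higher, and DESeq2 called 6 lower and 1 higher. The median interaction value was -0.39.

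The cytoskeleton lists had calls in the lower direction. Of 58 actin and non-muscle myosin genes tested, 8 fell and 2 rose in DTCs, and 2 were called lower in the interaction (3.45%, beside 0.594% of all genes tested). One was the formin gene exc-6, which went from 347, 375 and 417 CPM to 53, 60.9 and 44.2 CPM in DTCs and held 4.23 to 20.7 CPM in other cells (interaction -3.10 ± 0.61, adjusted p = 0.0365). The other was the non-muscle myosin heavy chain gene nmy-1, which held 286 to 438 CPM in DTCs and rose from 156 to 171 CPM up to 377 to 479 CPM in other cells. Of 36 microtubule genes tested, 6 fell in DTCs and 0 rose. The alpha tubulin genes tba-1 and tba-2 (5.56% of the list) were called in the interaction, at -1.32 ± 0.24 and -1.19 ± 0.23 (adjusted p = 0.0288 and 0.036). DTC levels of tba-1 went from 551 to 733 CPM to 221 to 229 CPM. These 2 genes are close copies, which the counting could split unevenly. Each of the 4 calls was lost without any of 8 to 11 of the 12 libraries, with adjusted p up to 0.109.

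The F-BAR gene toca-1, whose product links membrane bending to actin assembly, and kap-1, the accessory subunit gene of heterotrimeric kinesin, were among the leading lower genes. DTC levels of toca-1 were 254 to 282 CPM and then 87 to 106 CPM, against 17.4 to 19.2 and 20.7 to 41.3 CPM in other cells, an interaction value of -2.22 ± 0.34 (adjusted p = 0.0116). For kap-1 DTC levels were 402 to 479 and then 181 to 211 CPM, against 11.9 to 16 and 20 to 29.5 CPM in other cells.

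The known regulators of the niche and of DTC migration were mostly not called. Of 14 genes in that list, all tested, 2 were called lower (14.3%, beside 0.594% of all genes tested), hlh-12 and mig-6, and none higher. The bHLH factor gene hlh-12, which is required for DTC migration, stood at 69, 71.8 and 97.5 CPM in early L4 DTCs and at 2.91, 6.43 and 2.82 CPM in late L4 DTCs. In other cells it stood at 0.296, 0.429 and 0 CPM and then at 1.31, 0.402 and 2.87 CPM. The early DTC libraries were far above all others, and 1 late library of other cells (2.87 CPM) reached the lowest late DTC libraries. The DTC step was -4.29 ± 0.83 (adjusted p = 0.00721), the interaction value -6.90 ± 1.19 (adjusted p = 0.0216), and DTCs were no longer called above other cells at late L4 (1.40 on the log2 scale, adjusted p = 0.214). The interaction call was lost without any of 5 libraries (up to 0.061). The gene hlh-12 (chromosome IV, 8478595 to 8479446, minus strand) lies within the span of spp-10 on the opposite strand and shares no exon bases with it.

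The host gene spp-10 (8477180 to 8480656, plus strand), which encodes a saposin-like protein, was itself called. Its DTC levels were 299, 314 and 488 CPM and then 136, 141 and 74.8 CPM, and other cells rose from 77.8, 108 and 102 CPM to 267, 238 and 254 CPM. The interaction value was -3.05 ± 0.40 (adjusted p = 0.00686), with both steps called in opposite directions. Since the strand setting is not known, intronic reads of one could not be told apart from reads of the other.

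The Notch ligand gene lag-2 had 224, 211 and 216 CPM in early and 286, 246 and 376 CPM in late L4 DTCs and 0 to 3.04 CPM in other cells. Its interaction value was 1.36 ± 1.37 (adjusted p = 0.839), and its DTC step of 0.48 ± 0.88 was not called. The second Notch ligand gene apx-1 had 54.9 to 76.2 and then 64.3 to 86.5 CPM in DTCs, with an interaction value of -0.78 ± 0.48 (adjusted p = 0.611). The metalloprotease gene gon-1, needed for gonad elongation, had 37.3 to 49.2 and then 13.8 to 21.8 CPM in DTCs, and neither its DTC step (-1.33 ± 0.66, adjusted p = 0.235) nor its interaction value (-0.99 ± 0.93) passed. Where these misses reflect a wide error, as for lag-2 and gon-1, they do not show that the steps were alike. For lag-2 and gon-1 the DTC stages did not overlap, and the errors come from a single spread per gene fitted over all 4 groups.

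Of the 30 genes in the guidance list, 2 were called higher in the interaction (6.67%, beside 0.621% of all genes tested) and 0 lower. The Eph receptor gene vab-1 (chromosome II, 4572000 to 4590970, plus strand) rose in DTCs from 163 ± 29 CPM (mean ± SD, n = 3) to 296, 305 and 234 CPM and fell in other cells from 75.8, 91.5 and 82 CPM to 38.3, 32.8 and 37.6 CPM. No groups overlapped, and the interaction value was 1.97 ± 0.28 (adjusted p = 0.00882). The semaphorin gene smp-1 went from 143 to 155 CPM up to 281 to 331 CPM in DTCs and stood at 28 to 32.9 and then 7.8 to 21.8 CPM in other cells (interaction 2.22 ± 0.43, adjusted p = 0.0365, lost without any of 10 libraries, up to 0.1, and under size-factor scaling, 0.055). The netrin receptor genes unc-5 and unc-40 were not called. For unc-5 the DTC levels were 242 to 324 and then 186 to 361 CPM, overlapping between stages. For unc-40 they were 198 to 247 and then 245 to 373 CPM, and the interaction values of both genes were under 0.9 with adjusted p of 0.611 and 0.6. Outside that list, wrk-1, which encodes an axon guidance protein of the immunoglobulin superfamily, was among the leading lower genes, at 319 to 442 and then 71.9 to 110 CPM in DTCs against 69.8 to 74.6 and 89.6 to 178 CPM in other cells.

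Adhesion genes gave no call. Of 29 adhesion genes tested, none was called in the interaction by edgeR, with 5 higher and 3 lower at an unadjusted p under 0.05, and DESeq2 called 1 in each direction. The integrin alpha gene ina-1 fell in DTCs (843 to 961 CPM to 355 to 512 CPM, step -1.04 ± 0.26, adjusted p = 0.0241), with an interaction value of -0.47 ± 0.36. Its partner pat-3 had an interaction value of -0.40 ± 0.28, and the dystroglycan gene dgn-1 had -0.40 ± 0.26. The transcription factor genes pha-4, egl-13, hlh-2, daf-12 and lin-29 had interaction values from -0.80 to 0.41, none of them called. The innexin genes inx-8 and inx-9, whose gap junctions couple somatic gonad and germ cells, rose in DTCs by 1.46 ± 0.32 and 1.44 ± 0.26. In other cells inx-8 rose by 1.42 ± 0.32, and the interaction values were 0.04 and 0.55.

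Several of the lower interaction values came from other cells alone. The haem peroxidase gene skpo-1 (chromosome II, 8400299 to 8404848, minus strand) had the lowest value of the leading genes. Other cells held 2.12, 1.2 and 0.716 CPM at early L4 and 143, 167 and 146 CPM at late L4. DTCs held 37.8, 36.1 and 34.2 CPM and then 31.4, 69.3 and 36.3 CPM, overlapping between stages. DTCs thus passed from above other cells to below them, and the interaction value was -6.47 ± 0.57 (adjusted p = 0.00084). Of the 9 peroxidase and dual oxidase genes, skpo-1 was called lower and bli-3 higher, beside 0.594% and 0.621% of all genes tested. The dual oxidase gene bli-3 rose in DTCs from 5.74 to 6.65 CPM up to 50.6 to 98.8 CPM, while its levels in other cells overlapped between stages. Among the single removals, its call was kept only without other cells late L4 replicate 3. The call was also lost with all 24 libraries.

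The TGF-beta family ligand gene tig-2 (chromosome V, 4726721 to 4730161, minus strand) held 147 to 174 and then 135 to 187 CPM in DTCs. In other cells it rose from 21.3, 19.4 and 17.1 CPM to 89.7, 78.6 and 73.9 CPM, and the interaction value was -2.03 ± 0.27 (adjusted p = 0.00778). The testican gene test-1, an extracellular proteoglycan, held 1770 to 2380 and then 1690 to 1750 CPM in DTCs and rose in other cells from 77.1 to 83.6 CPM up to 195 to 226 CPM. It shares 12.5% of its exon bases with a gene on the opposite strand.

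A few members of other lists were also called, where 0.621% of all genes tested were called higher and 0.594% lower. The aspartic protease gene asp-4, of 39 lysosome and V-ATPase genes tested, rose in DTCs from 208 ± 78.1 to 1530 ± 58.2 CPM (mean ± SD, n = 3), against 164 to 229 and 271 to 464 CPM in other cells (interaction 2.09 ± 0.43, adjusted p = 0.0426). The fatty acid desaturase gene fat-4, of 20 lipid genes, rose in DTCs from 82.4 to 90.8 CPM up to 166 to 179 CPM (interaction 1.51 ± 0.31, adjusted p = 0.0407). Of 180 nuclear receptor genes tested, nhr-3 and nhr-101 were called higher (1.11%), and the list's median interaction value was 0.51. The potassium channel gene slo-2 was lower, with 353 to 427 and then 165 to 265 CPM in DTCs against 11.2 to 25.9 and 35 to 60.9 CPM in other cells (interaction -2.13 ± 0.45, adjusted p = 0.0454). The neuropeptide gene flp-10 fell in DTCs from 269 to 295 CPM to 97.8 to 182 CPM (interaction -2.23 ± 0.41, adjusted p = 0.0288). The calls of asp-4, fat-4, nhr-3, slo-2 and flp-10 were each lost without any of at least 8 libraries.

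Genes with no reads in a group were given by counts. F09D12.2 had 14860 counts over the 3 DTC libraries at each stage, none in early L4 other cells and 98, 65 and 224 counts in late L4 other cells. That rise in other cells was at least 236-fold against a floor of 3 counts over the group. The gene comt-1 had 666 and then 434 counts over the DTC libraries, and in other cells 176, 502 and 127 counts at early L4 and none at late L4, at least 147-fold lower. In DTCs ugt-57 had 147, 362 and 390 counts at early L4 and none at late L4, at least 219-fold lower, while other cells went from 2183 counts over the group to 156. These floors cover counting error only.

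Muscle genes were among those called. The sum of muscle markers rose in other cells, while in DTCs it overlapped between stages. Body wall muscle markers summed to 17300 to 19700 CPM in early and 38900 to 51100 CPM in late L4 other cells, against 3810 to 10100 and 4630 to 18800 CPM in DTCs. Of 23 such markers, unc-89 and unc-98 were called lower (8.7%, beside 0.594% of all genes tested). The marker unc-120 was called higher (4.35%, beside 0.621%), and the median was -0.13. The calls of unc-98 and unc-120 were each lost without any 1 of several libraries, among them each early L4 DTC library. The gene unc-89, which encodes the giant M-line protein obscurin, stood at 721, 724 and 879 CPM in early and 333, 243 and 113 CPM in late L4 DTCs. In other cells it rose from 223, 237 and 159 CPM to 449, 511 and 708 CPM, an interaction value of -3.18 ± 0.49 (adjusted p = 0.0121). For unc-89 the early DTC libraries were all above the late other-cell libraries. Outside the muscle list, the acetylcholine receptor subunit gene acr-2 had 136, 170 and 89.8 CPM and then 33, 21.1 and 13.5 CPM in DTCs. In other cells acr-2 had 13.5 to 20.8 and then 25.7 to 50.9 CPM. It shares 7.36% of its exon bases with a gene on the opposite strand. The part of muscle RNA in the values of the muscle markers was not tested.

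Several lists had no edgeR call in the interaction, and some of them changed in both fractions. Of all genes tested, 7.18% rose and 3.44% fell in DTCs, and 3.14% rose and 1.02% fell in other cells. Of 127 cuticle collagen genes of the col class tested, 43 rose and 4 fell in DTCs and 40 rose and 1 fell in other cells, and edgeR called none in the interaction (median 0.01), with 1 lower at an unadjusted p under 0.05 and by DESeq2. Of 90 sperm genes tested, 19 rose in DTCs and 15 in other cells and edgeR called none in the interaction, with 2 lower at an unadjusted p under 0.05 and by DESeq2. Yolk protein genes went from 0 to 2.5 CPM in sum to 1030 to 1980 CPM in DTCs and from 0.888 to 13.6 CPM to 397 to 999 CPM in other cells. All 6 had positive interaction values, with none called by edgeR or DESeq2, 2 higher at an unadjusted p under 0.05 and a median of 3.84, or 2.94 with members without reads set at their bound. Ribosomal proteins (81) and proteasome subunits (33) had no interaction call in edgeR or DESeq2 and 0 at an unadjusted p under 0.05. No ribosomal gene was called in either step, and 7 proteasome genes fell in DTCs with none called in other cells. Wnt pathway genes (25) had no interaction call in edgeR, 5 lower and 1 higher at an unadjusted p under 0.05, and 3 lower in DESeq2. In the steps, 3 Wnt genes fell in DTCs and none was called in other cells. Developmental timing genes (27) had none in edgeR, 8 higher and 3 lower at an unadjusted p under 0.05, and 3 in each direction in DESeq2. Over all genes tested, 1774 had an unadjusted p under 0.05.

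**Figure D4:**
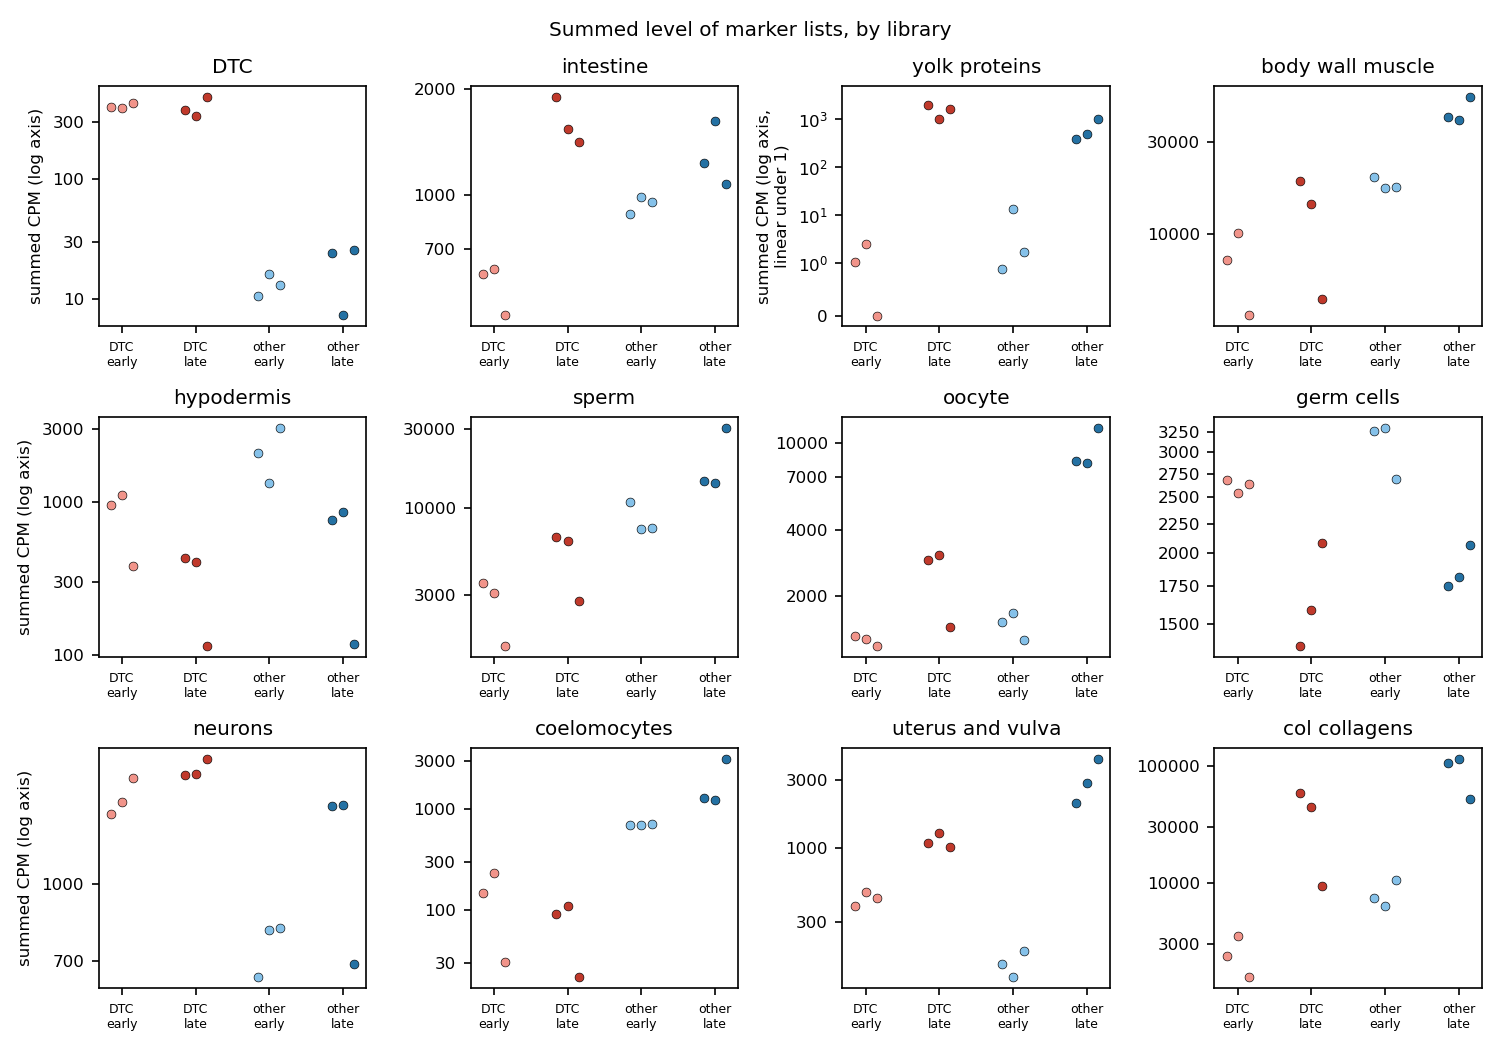
Summed CPM of 12 marker lists in each library of the 4 groups, on log axes that differ between panels (for yolk proteins linear under 1). DTC markers stay at 336 to 482 CPM in every DTC library and at 7.32 to 25.8 CPM in other cells, while the intestine sum in DTCs goes from 453 to 616 CPM up to 1410 to 1900 CPM and the late L4 libraries numbered 3 lie apart in several panels.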

How the data were processed

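The deposited data were 1 table of whole read counts per gene with 24 library columns, each mapped to its sample by name; the authors deposited these counts without normalization. Per the submitters' processing notes, FastQC, cutadapt, Bowtie2 and HTSeq were used with the ce11 build; no source used here gives versions or the strand setting. Per the labels' protocols, libraries were made from 1 ng of cDNA with a Nextera XT kit.

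The 12 libraries were filtered with filterByExpr, scaled by TMM and fitted with 4 group means in edgeR 4.0.16 (R 4.3.3), with 8 residual degrees of freedom and a common biological coefficient of variation of 0.672. The other 12 libraries (late L3 and adult) are not in the contrast and stayed out of the fit; fitting all 24, which gave a coefficient of 0.835, was an alternative. Errors were computed from the fold change and the F statistic. Positions come from the WBcel235 annotation of Ensembl release 115, the same assembly as ce11, and 43818 IDs (93.7%) had a symbol. The code was tested on simulated counts.

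The members and the 50 gene lists were chosen with earlier results of these data known, and 11 listed names had no match. Named were the 12 highest and 12 lowest interaction values that met the conditions given in the text, the leading genes of each step class, up to 4 called members of each list and direction by adjusted p, genes with 3 or fewer counts in a group, and a fixed set of known DTC genes. Calls of ost-1, uggt-1 and the genes around epi-1 were named after their values were seen. Alternatives were scaling by DESeq2's size factors, DESeq2 1.42.0, no filter and a stricter one (10 counts in 6 libraries), all 24 libraries, limma 3.58.1 voom with group weights, removal of ribosomal RNA and mitochondrial genes, a replicate block, and leaving out each library. No library pair looked like a repeat deposit by a chi-square comparison of counts.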

Additional observations from a re-analysis of the deposited data

Results flagged for a closer look

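The step from early to late L4 differed between DTCs and other cells by the interaction test itself for 186 genes, with 95 higher and 91 lower in DTCs. Among genes whose steps were both called and went opposite ways, 9 kept their interaction call without any 1 library. The interaction value was 1.97 for vab-1, and the other 8 were lower in DTCs. They were epi-1 (-2.37), lam-2 (-3.01), spp-10 (-3.05), unc-89 (-3.18), F18A1.7 (-2.61), F35A5.2 (-4.19), K08C7.1 (-4.50) and K08C7.6 (-4.98). For K08C7.6, DTC levels went from 35.4, 33.3 and 40.4 CPM to 13.8, 17.6 and 10.7 CPM, and other cells from 8.42, 7.46 and 9.98 CPM to 88.5, 84.5 and 142 CPM.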

How the results depend on the processing

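All 186 calls kept their direction in each alternative in which the gene was tested; how many were called varied widely. Interaction calls numbered 335 higher and 429 lower in DESeq2 and 28 and 36 with all 24 libraries (59 of 64 among the main calls). Leaving out 1 library gave 22 to 82 higher and 22 to 96 lower, from 44 in all without DTC early L4 replicate 1 to 178 without other cells late L4 replicate 3. The causes were not tested.

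The labels do not say whether the replicate numbers pair the libraries, and 3 samples per group are too few to decide it. Of 18 same-numbered pairs, 4 had correlated deviations over 0.1 (range -0.18 to 0.29). The 6 pairs from the same stage ranged from 0.03 to 0.15. With the number as a replicate block there were 33 higher and 35 lower interaction calls. The classes under this block had 47 (DTC step only), 10 (other-cell step only), 9 (opposite), 2 (same) and 0 (neither), and 89 genes fell in other cells. Of the 42 calls kept without any 1 library, 42 were kept under this block. With the replicate block within stage, 5 and 15 interaction calls were left, among them 15 of those 42, and DTCs were below other cells in 760 genes at early and 932 at late L4. Of the basement membrane list, 3 genes were called lower under the block and 1 under the block within stage, where lam-2 kept its call (adjusted p = 0.036) and epi-1 lost it (0.0724). The block changed no other count over all genes tested by over 1.5 times.

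Genes rising and falling in DTCs numbered 1994 and 1055 in DESeq2, 641 and 299 with all 24 libraries, and 612 to 1364 and 259 to 581 with 1 library left out. Genes rising and falling in other cells numbered 1375 and 468 in DESeq2, 312 and 41 with all 24 libraries, 801 and 268 in voom, 222 to 701 and 43 to 266 with 1 library left out, and 775 and 351 with both late L4 libraries numbered 3 left out, an alternative chosen after seeing the data. Genes lower in DTCs than in other cells at early L4 numbered 2533 (DESeq2), 279 (all 24), 3191 (voom), 2095 (both left out) and 481 to 1843 (1 left out). At late L4 they numbered 2877 (DESeq2), 440 (all 24), 673 (both left out) and 874 to 1747 (1 left out).

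The class of opposite steps held 60 genes in DESeq2, 6 with all 24 libraries, 34 with both left out and 6 to 22 with 1 left out. The class of same-way steps held 55, 3, 15 and 0 to 6, with 12 without a filter and 4 without ribosomal and mitochondrial genes. The DTC-only class held 442 in DESeq2, 45 with all 24 and 27 to 118 with 1 left out, and the other-cell-only class 171, 10 and 7 to 30. The class with neither step called held 36 in DESeq2, 13 without a filter, 3 under size-factor scaling, under the stricter filter and without ribosomal and mitochondrial genes, and 0 with all 24 libraries, in voom and with both left out; with 1 left out it held 0 to 3.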

Other observations

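The late L3 and adult libraries, scaled together with the L4 libraries, place the leading genes in a longer course; these are levels with no test. In DTCs hlh-12 went from 331 to 409 CPM at late L3 to 63.5 to 96.9 CPM at early L4, 2.56 to 5.71 CPM at late L4 and 2.41 to 4.04 CPM in adults. The DTC levels of mps-2 were highest of the 4 stages at late L4, at 514 to 1040 CPM. The same order held for acs-2, with 560 to 751 CPM at late L4 and 101 to 186 CPM in adult DTCs, and for adh-1, with 7490 to 11500 and 1510 to 4770 CPM. In contrast, alh-8 did not separate late L4 from adult DTCs (1490 to 2630 and 1710 to 3260 CPM).

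Levels of lam-2, epi-1 and pdi-6 in DTCs went on to adults in different ways. For lam-2 they were 253 to 384 CPM at late L4 and 25.9 to 54 CPM in adults, and for epi-1 5610 to 6450 and 755 to 1020 CPM. For pdi-6 the late L4 and adult ranges met, at 1060 to 1850 and 1010 to 1400 CPM. The peroxidase gene skpo-1 stood in DTCs at 202 to 244 CPM at late L3, 33.3 to 34.8 CPM at early L4, 27.6 to 61.5 CPM at late L4 and 378 to 454 CPM in adults, and in other cells at 0 to 0.778, 0.653 to 1.99, 131 to 152 and 445 to 772 CPM.

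Genes called the same way lay near each other at a pair of sites on chromosome IV, noticed after their values were seen. K08C7.1 and K08C7.6 lie 6037 and 5140 bases from epi-1 on either side of it, and all 3 fell in DTCs and rose in other cells. The genes between them (fmo-1, K08C7.7, K08C7.4 and fmo-2) were not called, with interaction values of 0.16, 0.29, 1.88 and 3.00. The GATA factor genes egl-18 and elt-6, separated by 136 bases, had interaction values of 3.67 and 3.89 (edgeR adjusted p = 0.0114 and 0.02), and both rose in DTCs. The call of egl-18 was lost without DTC early L4 replicate 1 (adjusted p = 0.053) and that of elt-6 without any of 3 libraries (up to 0.0721).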
